A study of Homo sapiens with 26 samples.

Results

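The MYB family of transcription factors, MYB, MYBL1 and MYBL2, was followed by RNA sequencing through 2 human germinal centre lymphoma lines in which the octamer factor POU2F2 or its coactivator POU2AF1 was repressed. The members were taken by name from the deposited transcript tables, with reads and abundances summed per gene and per transcript. They are 3 of the 58592 genes in the annotated tables, with 50 of the 205964 annotated transcripts. MYB (ENSG00000118513) has 42 of these and lies on the plus strand at chr6:135181315-135219173 (GRCh38). MYBL2 (ENSG00000101057) has 2 and lies on the plus strand at chr20:43667019-43716496. MYBL1 (ENSG00000185697) has 6.

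The cells were OCI-Ly7 and SU-DHL-4 (written SUDHL4 here), established lines from diffuse large B cell lymphoma of the germinal centre type. Every group, controls included, carried a lentiviral dCas9 joined to BFP and the KRAB repressor domain under the SFFV promoter, and received guide RNAs against POU2F2 (OCT2), POU2AF1 (OCA-B) or no target. The lines were kept in different media, IMDM with serum for OCI-Ly7 and RPMI with serum for SUDHL4. The sources used here do not give the number of guides or, apart from a 48 h mark on some files, the time after transduction. Nor do they say whether libraries came from separate cultures, so p-values reflect the spread among libraries, which may be technical. The 48 h mark is on OCI-Ly7 POU2AF1 knockdown replicate 3, OCI-Ly7 POU2F2 knockdown replicate 3 and an OCI-Ly7 control file that was set aside. The 26 files gave 22 libraries after 3 pairs of near-identical files were merged and 1 file that equalled the sum of 2 others was set aside. OCI-Ly7 had 4 control libraries, 6 with POU2AF1 knockdown and 8 with POU2F2 knockdown. SUDHL4 had 1 control library, 1 with POU2AF1 knockdown and 2 with POU2F2 knockdown, all labelled batch 1.

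The files held 24959865 to 53155548 estimated reads. The targeted genes checked the labels: POU2AF1 was at 461 ± 13.5 CPM (SD, n = 4) in OCI-Ly7 controls and 50.9 ± 27.8 CPM (n = 6) in its knockdown, and POU2F2 at 278 ± 89.2 CPM (n = 4) and 81.1 ± 30.7 CPM (n = 8), with no overlap in either case. In SUDHL4 the control had 406 CPM of POU2AF1, against 74.1 in its knockdown, and 303 CPM of POU2F2, against 40.6 and 52.1 in its knockdowns. CPM stands for reads scaled to a common library size after TMM normalisation within a line. Pan B cell markers were present in both lines, with CD79A at 804 to 1740 TPM in OCI-Ly7 and 622 to 1073 TPM in SUDHL4, as was the germinal centre marker MME (39.1 to 138 and 74.6 to 152 TPM). The germinal centre markers LMO2 and SERPINA9 reached at most 0.0856 and 0.199 TPM in any OCI-Ly7 library. In OCI-Ly7 the plasma cell markers MZB1 (264 to 614 TPM), XBP1 (46.8 to 189), IRF4 (39.2 to 117) and TNFRSF17 (9.97 to 26.9) were present. PRDM1 was at 1.05 to 2.55 TPM and SDC1 at most 0.232 TPM there. In SUDHL4 MZB1 (230 to 324 TPM), TNFRSF17 (9.1 to 24.5) and XBP1 (2.61 to 7.6) were present. IRF4, PRDM1 and SDC1 reached at most 0.441, 0.0621 and 0.044 TPM in that line. All 8 myeloid markers together reached at most 1.47 TPM in any library. Of 8 T and NK cell markers, CD2 and CD8A reached at most 0.038 TPM in any library, while TRAC was at 5.24 to 75.2 TPM. The summed T and NK list, nearly all of it TRAC, was at 6.41 TPM in the SUDHL4 control, 35.8 TPM in its POU2AF1 knockdown and 20 to 21.6 TPM in its POU2F2 knockdown. Its part in the results below was not tested.

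Some libraries stood apart. Batch 1 of OCI-Ly7 holds 1 control and 4 POU2AF1 knockdown libraries, and batch 2 holds 3 control, 2 POU2AF1 knockdown and all 8 POU2F2 knockdown libraries per the labels. Batch 2 is divided further by series marks (s0 to s3). OCI-Ly7 POU2AF1 knockdown replicate 1 had 25.8% of its reads on mitochondrial genes, against at most 14% in the 21 others. OCI-Ly7 POU2F2 knockdown replicate 3, which carries the 48 h mark and the batch 2 label, had transcript shares like those of batch 1. Gene level results of the members are given with and without these libraries where they change. The transcript fits, the gene lists and the genes of similar pattern were computed only with these libraries kept in.

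MYB proteins bind DNA through repeats near their N terminus that give the family its name. MYB is known from blood progenitors, where it keeps immature cells dividing, and is lowered as lymphocytes mature. MYBL1 is a known marker of the dividing centroblasts of the germinal centre and of the lymphomas derived from them. MYBL2 is found in nearly all dividing cells: E2F factors switch it on late in G1, and its protein then joins the MuvB core to form the MMB complex, which activates genes of G2 and mitosis. Octamer factors bind the octamer motif of B cell promoters and enhancers, and POU2AF1 is recruited to them there.

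Promoter sequences from RefSeq (GRCh38.p14, 250 bases before to 50 after the start) were matched for 2 of the 3 members, MYB and MYBL2, and searched on both strands. They are shown because the motif they share is that of the E2F class, whose genes are counted below. The octamer ATGCAAAT is in 1.77% of the 35116 promoters of this length and was found in neither window. The cell cycle homology motif TTTGAA is in 15.2% of promoters and was also found in neither. The E2F type motif TTGGCGGGA is in 0.31% of promoters, 109 in all, and was found once in each of the 2, starting 60 bases before the RefSeq start of MYB and 41 bases before that of MYBL2. The RefSeq starts differ from the GENCODE gene bounds given above, and in MYBL2 the match lies inside those bounds. It contains the shorter GGCGGGA, which is in 15.4% of promoters. The 30 bases around each match are given 5′ to 3′ on the plus strand, with the motif in capitals, at chr6:135181238-135181267 and chr20:43667063-43667092.
MYB: ggcgccagatTTGGCGGGAgggggagtgtc
MYBL2: gccgacgcgcTTGGCGGGAgatagaaaagt
A match is a description of these letters and not a measured site.

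The transcripts that carried most of each gene differ in their coding exons, and sequences that tell them apart are shown because the shares below rest in part on them. MYB-205 (ENST00000367814) and MYB-209 (ENST00000442647) differ at the end of an internal exon, chr6:135194356-135194460 in MYB-205 and chr6:135194356-135194451 in MYB-209, so that MYB-205 has 9 more bases, or 3 codons. The last 30 bases shared by this exon, the added bases in capitals, and the first 30 bases of the next exon read as follows.
MYB-205: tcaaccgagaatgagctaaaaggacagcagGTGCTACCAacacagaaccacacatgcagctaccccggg
MYB-209: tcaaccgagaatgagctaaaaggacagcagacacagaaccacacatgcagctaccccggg
MYBL2-202 (ENST00000396863) lacks a coding exon of 72 bases, or 24 codons, that MYBL2-201 (ENST00000217026) holds at chr20:43681784-43681855, and its first exon differs.
MYBL2-201 exon: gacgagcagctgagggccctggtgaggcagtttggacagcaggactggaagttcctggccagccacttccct
MYBL1-206 (ENST00000524176) lacks a coding exon of 180 bases, or 60 codons, that MYBL1-204 (ENST00000522677) holds, and is annotated with shorter ends. MYBL1-205 (ENST00000523304) is annotated as a retained intron of 2103 bases with no coding sequence.

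MYBL2 was the most abundant member in all 22 libraries. In OCI-Ly7 controls it was at 360 to 567 TPM (456 ± 94.2, SD, n = 4), MYBL1 at 34.3 to 61.3 TPM (43.1 ± 12.3) and MYB at 19.6 to 32.6 TPM (26.5 ± 7.04). TPM is scaled by transcript length, so these levels compare genes. MYBL2 made up 83.5% to 90.7% of the family's TPM there. MYBL1 was above MYB in each of the 4 controls, by a ratio of MYB to MYBL1 of 0.346 to 0.952, and the ranges of these neighbours did not overlap. In the SUDHL4 control the order was the same, with MYBL2 at 189 TPM, MYBL1 at 37.3 TPM and MYB at 18 TPM. In a fit of all libraries with batch as a term (edgeR quasi-likelihood test, Benjamini-Hochberg adjustment over 18918 genes), MYBL2 was lower in the SUDHL4 control than in OCI-Ly7 controls, by a log2 difference of -1.26 (SE 0.37, adjusted p = 0.017). The SUDHL4 side is 1 library, and its spread is assumed to be that of the other groups. MYB (-0.16, adjusted p = 0.82) and MYBL1 (0.27, adjusted p = 0.55) were not called. In this comparison 23.5% of genes were called, and without OCI-Ly7 control replicate 1, the only control of batch 1, the MYBL2 difference was -1.09 (adjusted p = 0.098).

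**Figure D1:**
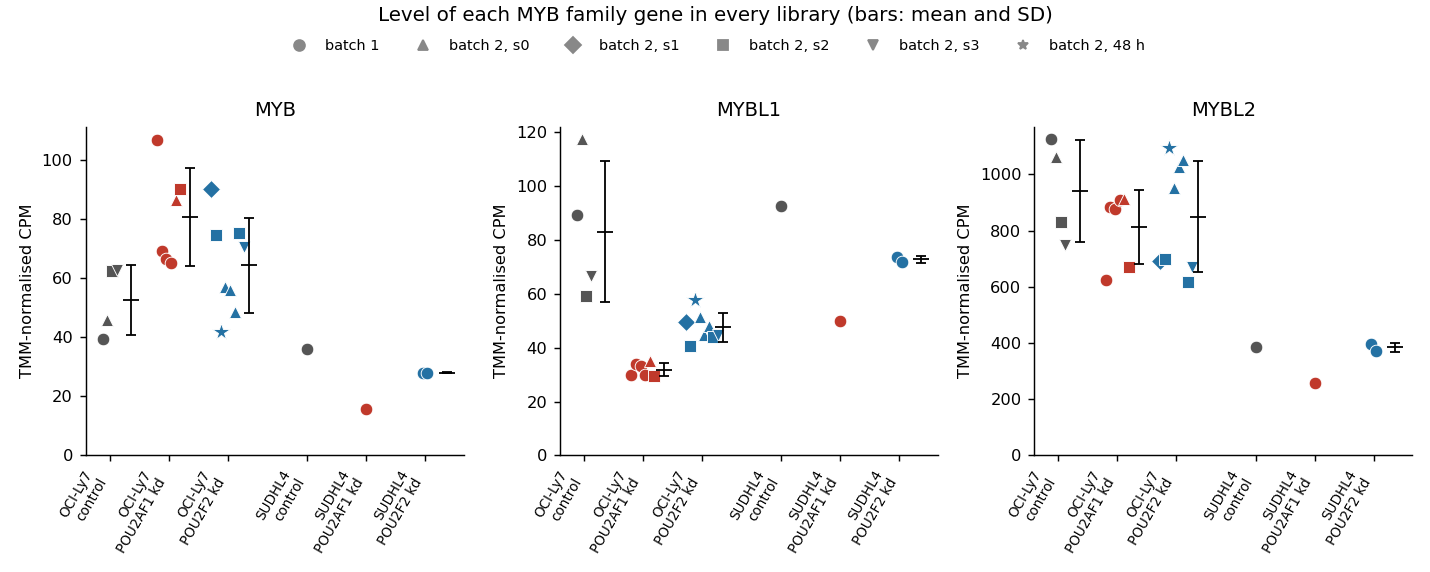
TMM-normalised CPM (linear axes from 0) of MYB, MYBL1 and MYBL2 in each of 22 libraries, by line and guide target (kd, knockdown), with marker shape giving the batch and series mark and bars giving the mean and SD of groups with more than 1 library; the lines were normalised separately. In OCI-Ly7 all 14 knockdown libraries lie below the 4 controls for MYBL1, and all 6 POU2AF1 knockdown libraries lie above the controls for MYB. How many other genes part the groups in this way was not counted.

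MYBL1 fell with POU2AF1 knockdown in OCI-Ly7. Controls were at 59.2, 66.5, 89.3 and 118 CPM (83.2 ± 26.3, n = 4). The 6 knockdown libraries ran from 29.5 to 34.9 CPM, with a median of 31.6. All 6 were below every control, and they spread far less than the controls did. Here and below, how many other genes part the groups without overlap was not counted. The fitted log2 change was -1.40 (SE 0.17, 95% interval from -1.75 to -1.05, adjusted p = 0.00024, edgeR). By this fit, which has batch as a term, 142 of 16001 genes (0.887%) were called, 45 higher and 97 lower. Within batch 1, which has a single control, the change was -1.49 (adjusted p = 0.024), and within batch 2 it was -1.31 (adjusted p = 0.15, with 7 genes called). Without OCI-Ly7 control replicate 1 it was -1.31 (adjusted p = 0.059, with 8 genes called).

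With POU2F2 knockdown MYBL1 was intermediate in OCI-Ly7. The 8 libraries ran from 40.7 to 57.6 CPM, with a median of 46.5, below all 4 controls and above all 6 POU2AF1 knockdown libraries. The fitted log2 change was -0.79 (SE 0.15, 95% interval from -1.11 to -0.48) and was not called (adjusted p = 0.38). In this comparison edgeR called 0 of 16001 genes (0%), 283 genes had an unadjusted p under 0.05, and DESeq2 called 5. A second fit, called the series block below, replaced the batch term by the series marks. It called 13 genes (0.0812%), among them MYBL1 at -0.87 (SE 0.11, adjusted p = 0.0078). DESeq2 by batch gave -0.79 (adjusted p = 0.0043). In the series block POU2F2 knockdown replicates 1 and 3 have no control with the same mark and do not enter the estimate. With control replicate 7, the highest control at 118 CPM, left out of the fit by batch, the change was -0.53 (adjusted p = 1), and without POU2F2 knockdown replicate 3 it was -0.82 (adjusted p = 0.23).

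The direct comparison of both knockdowns gave MYBL1 a log2 difference of 0.60 (POU2F2 over POU2AF1 knockdown, SE 0.17, 95% interval from 0.24 to 0.97, adjusted p = 0.41), with 26 genes (0.162%) called. In the series block it was 0.54 (adjusted p = 0.055), with 1.26% of genes called. Placing POU2F2 knockdown replicate 3 in batch 1 made it 0.64 (adjusted p = 0.043). The library values of both knockdowns did not overlap, and the test passed the threshold under some settings only.

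MYB, in contrast, stood higher with POU2AF1 knockdown in OCI-Ly7. Controls were at 39.4, 45.8, 62.6 and 62.8 CPM (52.6 ± 11.9, n = 4). The 6 knockdown libraries were at 65 to 107 CPM, with a median of 77.7. All 6 exceeded every control, though the gap between the lowest knockdown library (65) and the highest control (62.8) was small. The fitted log2 change was 0.76 (SE 0.22, 95% interval from 0.29 to 1.23) and was not called in the fit by batch (adjusted p = 0.17). The series block gave 0.82 (SE 0.15, adjusted p = 0.0032), with 894 genes (5.59%) called, and DESeq2 gave 0.77 (adjusted p = 0.038). The highest value, 107 CPM, came from replicate 1, the library with 25.8% mitochondrial reads. Without it the series block gave 0.74 (adjusted p = 1.2e-05), with 1692 of 15956 genes called. That setting was chosen after seeing the data. Within batch 1 the change was 0.97 (adjusted p = 0.45) and within batch 2 it was 0.65 (adjusted p = 1).

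With POU2F2 knockdown MYB overlapped its controls in OCI-Ly7. The 8 libraries ran from 41.9 to 90.3 CPM, with a median of 63.8, and 4 of them were above every control. The fitted log2 change was 0.22 (SE 0.20, 95% interval from -0.19 to 0.64, adjusted p = 1). Compared directly, POU2F2 knockdown was lower than POU2AF1 knockdown by a log2 difference of -0.54 (SE 0.22, adjusted p = 1 by edgeR, and -0.56 with adjusted p = 0.091 in the series block).

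For MYBL2 the 3 groups overlapped in OCI-Ly7. Controls were at 748, 830, 1063 and 1126 CPM (942 ± 181, n = 4). POU2AF1 knockdown libraries ran from 623 to 914 CPM (median 882) and POU2F2 knockdown libraries from 617 to 1094 CPM (median 826). Both ranges overlapped that of the controls. The fitted log2 changes were -0.27 (SE 0.20, 95% interval from -0.70 to 0.15) and -0.10 (SE 0.18, 95% interval from -0.49 to 0.29), each with adjusted p = 1 by edgeR. The series block gave -0.34 (SE 0.11, adjusted p = 0.084) for POU2AF1 knockdown. Without POU2AF1 knockdown replicate 1, a setting chosen after seeing the data, this was -0.29 (adjusted p = 0.0047). It called 1692 of 15956 genes.

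Series s0, s2 and s3 each hold 1 control under the same mark as their knockdown libraries. In series s0 the control had 45.8 CPM of MYB, 118 of MYBL1 and 1063 of MYBL2. The POU2AF1 knockdown library of s0 had 86.3, 34.9 and 914 CPM, and its 3 POU2F2 knockdown libraries had 48.7 to 57.1, 44.9 to 51.4 and 953 to 1052 CPM. In series s2 the control had 62.6, 59.2 and 830 CPM, the POU2AF1 knockdown library had 90, 29.5 and 671 CPM, and the 2 POU2F2 knockdown libraries had 74.7 and 75.4, 40.7 and 44, and 699 and 617 CPM. In series s3 the control had 62.8, 66.5 and 748 CPM and the POU2F2 knockdown library had 70.6, 44.8 and 671 CPM. Against the control of its series, MYB was higher in 2 of 2 POU2AF1 and 6 of 6 POU2F2 knockdown libraries. MYBL1 and MYBL2 were lower in all 8. The ratios to the control were 1.44 to 1.89 and 1.06 to 1.25 for MYB, 0.297 to 0.498 and 0.381 to 0.742 for MYBL1, and 0.809 to 0.859 and 0.744 to 0.989 for MYBL2, giving POU2AF1 knockdown first. The libraries of a series share that 1 control in these ratios, so their agreement in direction is not independent. How many other genes agree in direction over these libraries was not counted.

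**Figure D2:**
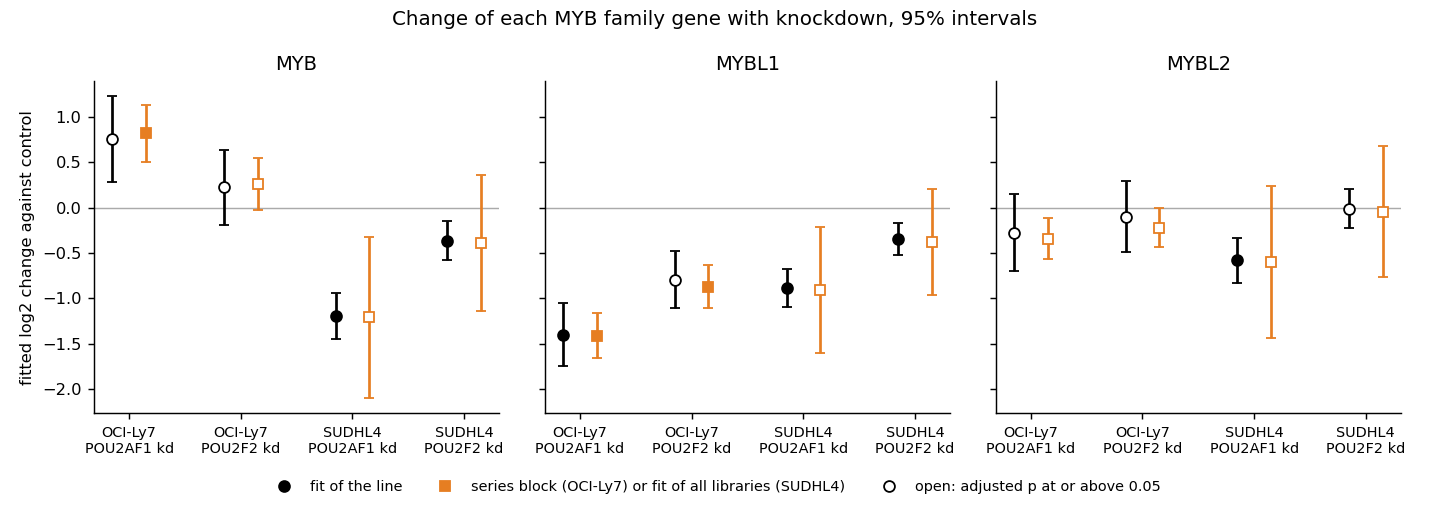
Fitted log2 change against control with 95% intervals for each member in the 4 knockdown comparisons, by the fit of each line (black circles) and by the series block for OCI-Ly7 or the fit of all libraries for SUDHL4 (orange squares); open symbols have an adjusted p of at least 0.05. MYB lies above 0 in OCI-Ly7 and below 0 in SUDHL4 for POU2AF1 knockdown, and MYBL1 lies below 0 in all 4 comparisons.

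In SUDHL4 all 3 members were lower with POU2AF1 knockdown. MYB was at 35.9 CPM in the control, 15.7 CPM in the POU2AF1 knockdown and 27.8 and 28.1 CPM in the POU2F2 knockdowns. MYBL1 was at 92.7, 50.1, and 71.9 and 73.7 CPM in the same order. MYBL2 was at 387, 259, and 373 and 396 CPM. For MYB and MYBL1 the order of the libraries was control, POU2F2 knockdown, POU2AF1 knockdown, while for MYBL2 the control lay between both POU2F2 knockdown libraries.

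The SUDHL4 fit rests on 1 residual degree of freedom, from the 2 POU2F2 knockdown libraries, and assumes that the lone control and POU2AF1 knockdown libraries vary like them. By it, the log2 change with POU2AF1 knockdown was -1.19 for MYB (SE 0.13, adjusted p = 2.5e-09), -0.89 for MYBL1 (SE 0.10, adjusted p = 2.0e-08) and -0.58 for MYBL2 (SE 0.12, adjusted p = 0.00025, edgeR). The background is high: 36.8% of 16973 genes were called and 18.8% were called lower. When all 22 libraries were fitted together, with a spread that came mainly from OCI-Ly7, the changes were -1.21, -0.91 and -0.60, none was called (adjusted p = 0.19, 0.21 and 0.64), and 1.66% of 18918 genes were.

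POU2F2 knockdown in SUDHL4 gave smaller changes. The SUDHL4 fit gave MYB -0.36 (SE 0.11, adjusted p = 0.027) and MYBL1 -0.35 (SE 0.088, adjusted p = 0.0092), both called, beside 7.35% of genes. MYBL2 was at -0.01 (SE 0.11, 95% interval from -0.22 to 0.20, adjusted p = 0.98). Neither call held by DESeq2 (adjusted p = 0.40 and 0.12) or when all 22 libraries were fitted together, where each of the 3 members had an adjusted p of 1 and 0.0951% of genes were called. Against POU2AF1 knockdown directly, POU2F2 knockdown was higher by 0.83 for MYB (adjusted p = 6.9e-07), 0.54 for MYBL1 (2.6e-05) and 0.57 for MYBL2 (0.00011) in the SUDHL4 fit, with 26.2% of genes called. The fit of all libraries gave 0.82, 0.53 and 0.55 with adjusted p of 0.64, 0.81 and 0.90, and called 0.196% of genes.

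Whether the lines responded differently was tested as an interaction in the fit of all libraries. For POU2AF1 knockdown the SUDHL4 response minus the OCI-Ly7 response was -1.97 for MYB (SE 0.48, 95% interval from -2.97 to -0.96, adjusted p = 0.065), 0.50 for MYBL1 (SE 0.37, adjusted p = 0.75) and -0.32 for MYBL2 (SE 0.45, adjusted p = 0.93). This fit called 0.798% of genes. The MYB difference just missed the threshold by edgeR and passed it by DESeq2 (-1.97, adjusted p = 0.0061), on the deposited TPM with limma (-2.09, adjusted p = 0.014) and without OCI-Ly7 POU2AF1 knockdown replicate 1 (-1.88, adjusted p = 0.039). For POU2F2 knockdown the differences were -0.61, 0.42 and 0.06 (adjusted p = 1 each), with 0.0106% of genes called. The SUDHL4 side of every such contrast is 1 control and 1 or 2 knockdown libraries.

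These levels set the balance of MYB to MYBL1. The ratio of their TPM was 0.346 to 0.952 in OCI-Ly7 controls, 0.842 to 1.71 with POU2F2 knockdown and 2.33 to 4.18 with POU2AF1 knockdown. MYBL1 was thus the more abundant of the pair in every control and MYB in every POU2AF1 knockdown library of that line. In SUDHL4 MYBL1 stayed the more abundant, with ratios of 0.483 in the control, 0.467 and 0.468 with POU2F2 knockdown and 0.368 with POU2AF1 knockdown. TPM and normalised CPM can part company in single libraries: OCI-Ly7 POU2AF1 knockdown replicate 1, highest for MYB in CPM, had 37.8 TPM within the range of the 5 others (32.3 to 46.6).

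MYB and MYBL2 ran opposite to each other across OCI-Ly7. The 6 libraries with the least MYB were the 6 with the most MYBL2, in exactly reversed order. They were control replicates 1 and 7 and POU2F2 knockdown replicates 3, 4, 5 and 6, from 39.4 to 57.1 CPM of MYB. Over 18 libraries the log2 CPM of these genes had a Pearson r of -0.84 (permutation p = 2e-05, adjusted 6e-05 over 3 pairs of members) and a Spearman rho of -0.85 (permutation p = 5e-05, adjusted 0.00015). Within batch 2 (13 libraries) r was -0.80 (permutation p = 0.0018, adjusted 0.0055). Leaving out the 2 libraries farthest from the median of MYB gave -0.78 over 16 libraries and -0.74 over 11 within batch 2. With the mean of each series subtracted r was -0.88. MYB and MYBL1 had r = -0.72 (permutation p = 0.00086, adjusted 0.0013) and rho = -0.69 (permutation p = 0.0023, adjusted 0.0035), with -0.60 after leaving out 2 libraries. Within batch 2 this pair had r = -0.67 (permutation p = 0.0089, adjusted 0.013). MYBL1 and MYBL2 had r = 0.47 (permutation p = 0.049) and rho = 0.50 (permutation p = 0.039), which became 0.21 without control replicates 7 and 1 and so rests on those libraries. Within batch 2 this pair had r = 0.44 (permutation p = 0.13), and with series means subtracted 0.64. The series-centred r of MYB and MYBL1 was -0.80. Libraries share a batch, a series mark or a guide target with others, so the points are not fully independent. The permutations ignored this sharing, and how often other pairs of genes reach such an r was not counted.

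**Figure D3:**
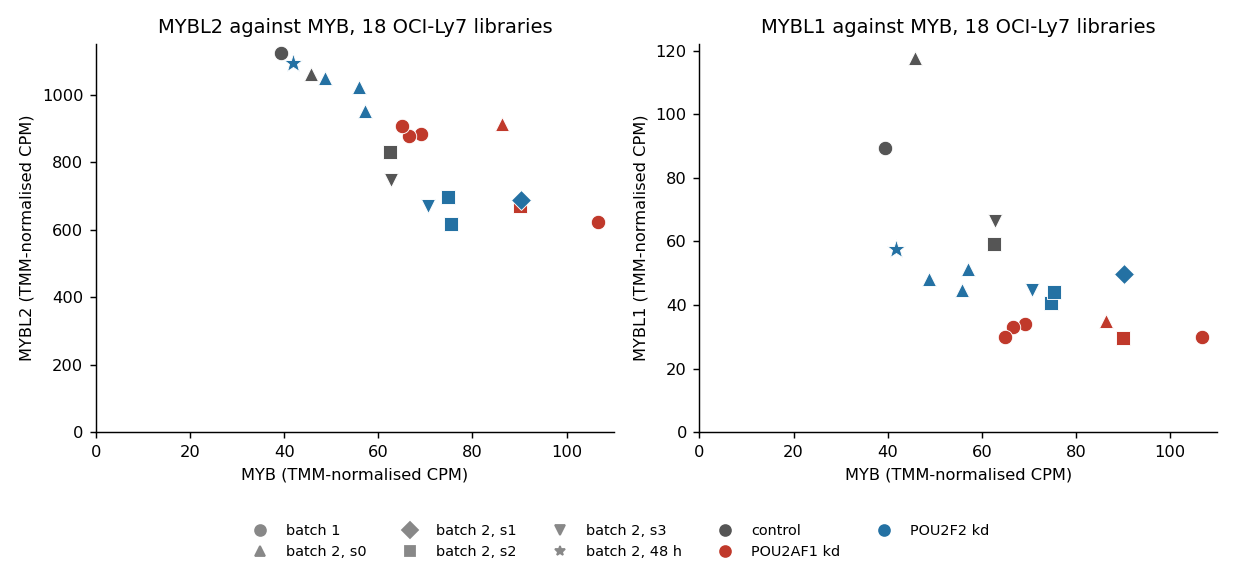
MYBL2 (left) and MYBL1 (right) against MYB in 18 OCI-Ly7 libraries, all in TMM-normalised CPM on linear axes from 0, with colour giving the guide target (kd, knockdown) and shape the batch and series mark. MYBL2 declines from 1126 to 623 CPM as MYB rises from 39.4 to 107 CPM, and libraries of series s0 sit at the upper left of those of s2 and s3 in the left plot, except the POU2AF1 knockdown library.

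Of the 50 transcripts, 9 held at least 5% of their gene's TPM on average in either line. MYB-205, the form with the 9 added bases, held 50.8% of MYB's TPM in OCI-Ly7 and 53.6% in SUDHL4, MYB-209 held 13.9% and 26.9%, and MYB-235 held 6.74% and 1.31%. MYBL1-204 held 52.6% and 68.8% of MYBL1, MYBL1-206 held 32.8% and 18.8%, MYBL1-205 held 10.8% and 5.56%, and MYBL1-203, a short transcript with no coding sequence, held 3.05% and 6.48%. MYBL2-201, with the 72-base exon, held 96.3% and 92.3% of MYBL2, and MYBL2-202 held the remaining 3.73% and 7.74%. These shares come from Salmon's division of reads among overlapping transcripts and are estimates.

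The fall of MYBL1 with POU2AF1 knockdown in OCI-Ly7 was shared by its transcripts. In a fit of 69624 transcripts, of which 0.0661% were called, MYBL1-204 changed by -1.39 on the log2 scale (SE 0.20, adjusted p = 0.011) and MYBL1-205 by -2.03 (SE 0.35, adjusted p = 0.041). MYBL1-206 was at -1.19 (SE 0.27, adjusted p = 0.26) and passed in the series block (-1.19, adjusted p = 0.030), which called 0.388% of transcripts. MYBL1-204 had 22.4 ± 4.01 TPM in 4 controls, 8.57 ± 1.60 TPM in 6 POU2AF1 knockdown and 13 ± 1.57 TPM in 8 POU2F2 knockdown libraries. For MYB the same comparison gave MYB-205 0.73 (SE 0.28), MYB-235 0.75 (SE 0.51) and MYB-209 0.77 (SE 1.38), each with adjusted p = 1. With POU2F2 knockdown none of the members' named transcripts was called by batch, beside 0.00287% of transcripts. MYBL1-204 was called in the series block (-0.84, adjusted p = 0.016), beside 0.0129%.

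The share of reads in the leading transcript of each gene did not separate the guides. Over 6 comparisons in OCI-Ly7 (3 genes, 2 knockdowns) the difference in mean share from the controls ran from -3.59 to 7.97 percentage points, and no exact two-sided permutation test passed, with p from 0.15 to 0.74 (adjusted 0.66 to 0.74). The smallest p these designs allow is 0.0048 for 6 against 4 libraries and 0.0020 for 8 against 4. For MYBL1-204 the difference of 7.97 points with POU2AF1 knockdown (73.8% ± 11.9 against 65.8% ± 10.1) became 1.60 points within batch 1 and -2.53 points within batch 2.

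The shares of MYB-209, MYBL1-204, MYBL1-206, MYBL2-201 and MYBL2-202 did not overlap between the labelled batches of OCI-Ly7, while those of MYB-205, MYB-235, MYBL1-203 and MYBL1-205 did. POU2F2 knockdown replicate 3 was set aside for this because of these same shares, which were like those of batch 1. The separation is therefore a description and no test. With this library kept under its batch 2 label, the ranges of MYB-209, MYBL1-204, MYBL1-206, MYBL2-201 and MYBL2-202 all overlapped between the batches. The 2 MYBL2 transcripts make up the whole gene, so their shares mirror each other. How many of all transcripts part the batches in this way was not counted, so no trait of the family follows. MYBL1-206 held 11.5% to 15.6% of MYBL1's reads in 5 batch 1 libraries of OCI-Ly7 and 27.5% to 37.8% in 12 of batch 2, with 9.95% to 14.7% in SUDHL4, which is all batch 1. MYBL2-202 held 5.9% to 6.81%, 1.11% to 4.16% and 6.56% to 8.57% in the same order, and MYB-209 held 24.8% to 30.9%, 0% to 15.7% and 23.8% to 40.4%. POU2F2 knockdown replicate 3, labelled batch 2, had 10.9% for MYBL1-206, 5.96% for MYBL2-202 and 36.8% for MYB-209, in or next to the batch 1 ranges. In SUDHL4 the share of MYB-205 was 62.9% in the control (95% Wilson interval 60.7% to 65.0%), 49.2% (45.9% to 52.4%) with POU2AF1 knockdown, and 50.3% and 60.8% with POU2F2 knockdown. The intervals cover counting error only, and the 2 POU2F2 knockdown libraries differed from each other by about as much as the control did from the POU2AF1 knockdown.

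**Figure D4:**
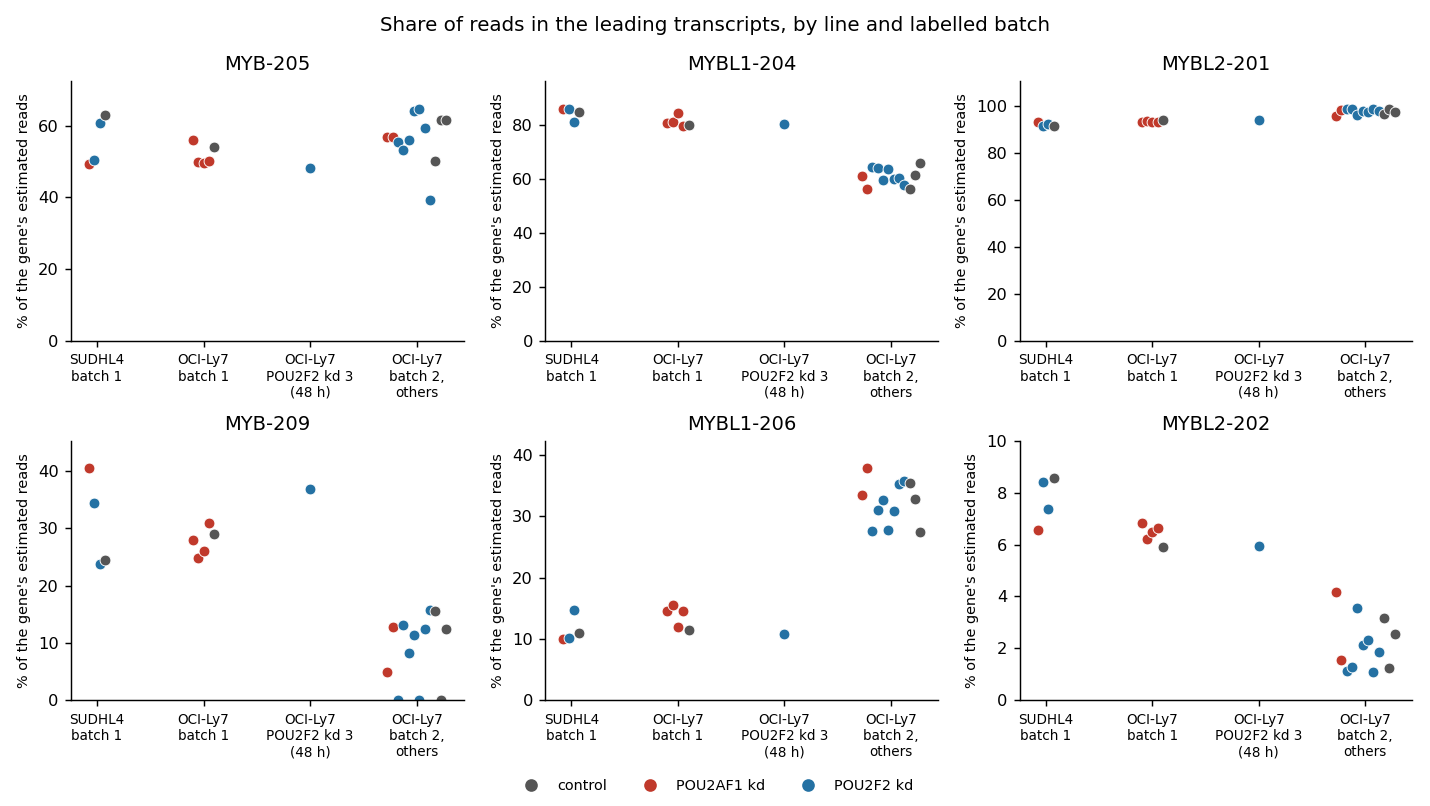
Share of each gene's estimated reads (percent, axes from 0) in 6 transcripts by line and labelled batch, with OCI-Ly7 POU2F2 knockdown replicate 3 on its own and colour giving the guide target (kd, knockdown). For MYBL1-206 and MYBL2-202 the other OCI-Ly7 batch 2 libraries lie apart from batch 1 and from SUDHL4. Replicate 3 (10.9% and 5.96%), also labelled batch 2, lies in or next to the batch 1 range.

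The genes around the family were described by lists. The partners of MYBL2, the MuvB core with the DREAM and MMB complexes, had 13 of 13 members tested. In OCI-Ly7 edgeR by batch called none with either knockdown. With POU2AF1 knockdown DESeq2 called E2F5, a repressive E2F factor of this complex, lower (-0.44, adjusted p = 0.0045, beside 2.04% of all genes), as did the series block (-0.48, adjusted p = 0.0007, beside 5.59%). The list medians by batch were -0.07 for POU2AF1 and -0.05 for POU2F2 knockdown, beside -0.00 and 0.00 over all genes. In SUDHL4 POU2AF1 knockdown 6 of 13 were called lower and 0 higher, beside 18.8% of all genes lower (median -0.27, beside 0.01 over all genes). They included FOXM1, which takes over from MYBL2 at late G2 genes (205 CPM in the control, 109 CPM in the knockdown, -0.91, SE 0.11), TFDP2, the dimer partner of E2F proteins (-0.72), and the MuvB subunits LIN54 (-0.68) and LIN9 (-0.56). In the fit of all libraries 1 of 13 was called, FOXM1 (-0.93), beside 1.66% of genes. With POU2F2 knockdown 0 of 13 were called in SUDHL4 by edgeR and by DESeq2.

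Genes of G2 and mitosis that MYBL2 binds with MuvB were 26, all tested. In OCI-Ly7 0 of 26 were called with either knockdown, by edgeR, by DESeq2 or in the series block, with medians of -0.09 and -0.01. In the SUDHL4 fit all 26 were lower with POU2AF1 knockdown, beside 18.8% of all genes, with a median of -0.82. The mitotic kinase CDK1 went from 183 to 84.7 CPM (-1.11, SE 0.11), the spindle protein ASPM from 216 to 97.4 CPM (-1.15, SE 0.11), the checkpoint kinase BUB1B from 209 to 96.4 CPM (-1.11, SE 0.11) and the kinetochore protein CENPF from 309 to 153 CPM (-1.02, SE 0.12). With POU2F2 knockdown 3 of 26 were called lower, beside 2.56% of all genes (median -0.16): KIF20A (-0.34), TTK (-0.32) and BUB1B (-0.30), none of them by DESeq2. In the fit of all libraries 5 of 26 were called with POU2AF1 knockdown, CDK1, ASPM, BUB1B and TTK among them, beside 1.66% of genes. With POU2F2 knockdown 0 were, beside 0.0951% of genes. The difference between the lines was called by edgeR for 1 of 26, BUB1B (-1.15, adjusted p = 0.049), beside 0.798% of genes, and by DESeq2 for 6 of 26, beside 3.02%.

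The E2F class genes of G1 to S, the group that MYBL2 belongs to by its own regulation, had 19 of 19 tested. In the SUDHL4 fit of POU2AF1 knockdown 18 were lower and 0 higher, beside 18.8% of all genes lower (median -0.74). E2F1 went from 176 to 84.8 CPM (-1.06, SE 0.11), E2F2 from 160 to 76.4 CPM (-1.06, SE 0.11), the replication factor CDC45 from 51.2 to 26 CPM (-0.97, SE 0.11) and the helicase subunit MCM6 from 398 to 204 CPM (-0.97, SE 0.12). In the fit of all libraries 4 were called with POU2AF1 knockdown, beside 1.66% of genes. With POU2F2 knockdown only MCM2 was called in the SUDHL4 fit (-0.33), beside 2.56% of all genes lower. In OCI-Ly7 none was called by batch with either knockdown (medians -0.13 and -0.09). The series block of POU2AF1 knockdown called 4 lower, beside 5.59% of all genes either way, among them the cyclins CCNE1 (-0.73) and CCNE2 (-0.43) and E2F1 (-0.32).

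Cofactors and regulators of MYB proteins had 18 of 19 members tested. In OCI-Ly7 none was called by batch with either knockdown. The series block called the kinase NLK lower with POU2AF1 knockdown (-0.33, adjusted p = 0.014), beside 5.59% of all genes either way. In SUDHL4 POU2AF1 knockdown 10 were called lower and 1 higher, beside 18.8% and 18% of all genes. The kinase PIM1 went from 42.3 to 11.8 CPM (-1.84, SE 0.14), the cyclin CCNF from 103 to 52.4 CPM (-0.98, SE 0.10), the cyclin CCNA2 changed by -0.97 and the ubiquitin ligase subunit SKP2 by -0.90, while the kinase HIPK1 rose by 0.32. With POU2F2 knockdown 3 were called lower, beside 2.56% of all genes: PIM1 (-0.91), CEBPB (-0.44) and CCNF (-0.33). In the fit of all libraries only CCNF was called with POU2AF1 knockdown, beside 1.66% of genes.

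Reported MYB target genes of blood cells had 12 of 18 members tested in each line. In the SUDHL4 fit of POU2AF1 knockdown 5 were lower and 5 higher, beside 18.8% and 18% of all genes (median -0.49). MYC, the growth regulator, went from 487 to 224 CPM (-1.12, SE 0.12), the cyclin-dependent kinase CDK6 from 336 to 144 CPM (-1.22, SE 0.12), the enzyme ADA from 9.84 to 3.28 CPM (-1.59, SE 0.24) and ETS2 from 46.9 to 25.8 CPM (-0.86, SE 0.12). LMO2, a transcriptional adaptor, went from 13.9 to 67.9 CPM (2.29, SE 0.26) and BCL2, which blocks apoptosis, changed by 0.31. CD4 and PTCRA, counted among those higher, had 0 reads in the control and 17 and 15 reads in the POU2AF1 knockdown. They passed the count filter only through knockdown libraries, so their direction was fixed in advance and is no evidence of a change. With POU2F2 knockdown 4 of the list were lower and 1 higher, beside 7.35% of all genes either way. The fit of all libraries called 0 of 14 for either knockdown, beside 1.66% of genes with POU2AF1 and 0.0951% with POU2F2 knockdown. In OCI-Ly7 POU2AF1 knockdown MYC was on the other side of its controls, at 294 ± 28.9 CPM in 4 controls and 436 ± 39.5 CPM in 6 knockdown libraries, with no overlap. This was not called by edgeR by batch (0.52, adjusted p = 0.15) and was called by DESeq2 (0.54, adjusted p = 0.028) and in the series block (0.56, SE 0.10, adjusted p = 0.0027). The line difference of the response was called for MYC (-1.65, SE 0.33, adjusted p = 0.017). The series block of OCI-Ly7 also called CXCR4 higher (0.73) and CDK6 (-0.92), CCNE1 (-0.73) and BIRC3 (-0.68) lower, beside 5.59% of all genes either way.

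Among germinal centre identity genes, 12 of 14 were tested in OCI-Ly7, and 4 fell with POU2AF1 knockdown while none rose, beside 0.606% of all genes called lower. The repressor BCL6 was at 345 ± 51.6 CPM in controls and 117 ± 28.7 CPM in knockdown libraries (-1.44, SE 0.18). The signalling regulator RGS13 was at 122 ± 19.2 and 49.3 ± 8.43 CPM (-1.22, SE 0.14) and the elongation factor ELL3 at 154 ± 11.6 and 80.7 ± 16.2 CPM (-0.89, SE 0.16). In SUDHL4, with 1 library on each side, 6 of 14 were lower and 5 higher, beside 18.8% and 18% of all genes. The fit of all libraries called 1 lower, BCL6 (adjusted p = 0.039), and 1 higher, beside 1.66% of genes. BCL6 (645 to 223 CPM, -1.53) and SERPINA9 (86.1 to 19 CPM, -2.18) were lower there with MME (-0.79) and SUSD3 (-0.66), whereas LMO2 (2.29), BACH2 (1.32) and GCSAM (1.2) were among those higher. Other proteins with MYB type repeats, 12 of 12 tested, had 0 calls in OCI-Ly7 by edgeR, DESeq2 and the series block. In SUDHL4 only the deubiquitinase MYSM1 was called, higher with either knockdown (0.38 and 0.40), beside 36.8% and 7.35% of all genes either way. It was not called by DESeq2 or in the fit of all libraries.

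**Figure D5:**
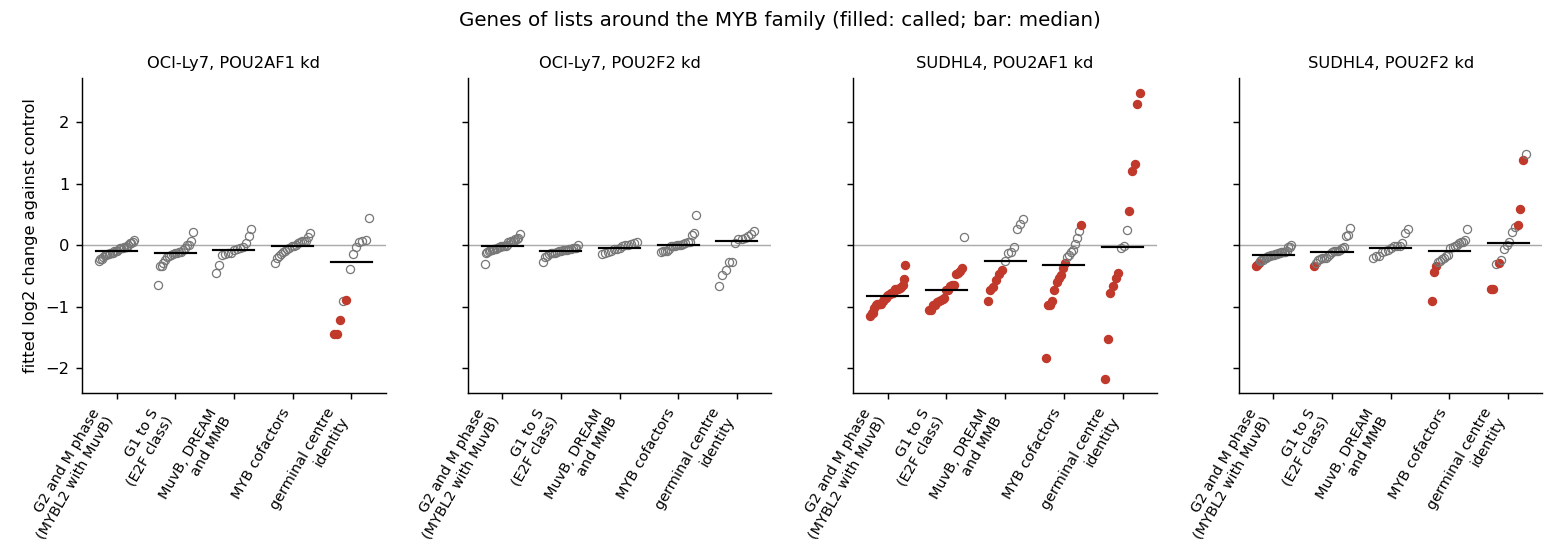
Fitted log2 change against control of each tested gene in 5 lists, for the 4 knockdown comparisons by the fit of each line, with filled points called at an adjusted p under 0.05 and bars at the list median (kd, knockdown). In SUDHL4 POU2AF1 knockdown all 26 genes of the G2 and M list are filled and below 0, around a median of -0.82, while in OCI-Ly7 none of that list is filled.

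The genes whose pattern across OCI-Ly7 was most like each member were found by Pearson r of log2 CPM over 18 libraries after the mean of each batch was subtracted, among 10244 genes with a mean of at least 5 CPM. For MYB the first 4 were ARID5B (r = 0.95), CELF2 (0.95), ERP29 (0.95) and ZEB2 (0.94). For MYBL1 they were SERPINB9 (0.89), DAAM1 (0.86), LOXL2 (0.85), PTPN18 (0.85) and BCL6 (0.85). For MYBL2 they were TUBB4B (0.99), SUPT5H (0.98), C1orf216 (0.97), RAB35 (0.97) and SUGP1 (0.96). With series means subtracted in place of batch means, PTPN18 stayed among the first 5 for MYBL1, and TUBB4B and SUPT5H for MYBL2, while none of the first 5 for MYB did. The libraries share guide targets and series marks, so these values describe likeness of pattern and carry no test.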

How the data were processed

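Messenger RNA of OCI-Ly7 and SUDHL4 CRISPR interference lines was sequenced by the authors as stranded paired-end libraries, per the labels' protocols. Per the submitters' processing notes, fastp and Salmon 1.5.1 were used with GRCh38.p13. No annotation release or fastp version is named in the sources used here. The deposited files give an estimated count and a TPM per transcript. Of 227912 transcripts, 205964 matched GENCODE 29 by identifier and held 98.4% to 98.9% of reads. For MYB-209 and MYBL2-201 the authors' files differ from GENCODE 29. Members, lists and tests were chosen with earlier results of these data known.

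Transcript counts were added up by gene and rounded. Of the files, 3 pairs whose counts differed by 1.11 to 1.14 times the sampling noise (others 2.64 or more) were merged below a ratio of 1.5. An OCI-Ly7 control file marked 48 h equalled the sum of 2 others (within 2 reads for 93.3% of genes) and was not added again. Lines were fitted separately in edgeR 4.0.16 with TMM factors, filterByExpr (minimum count 10) and the robust quasi-likelihood test. OCI-Ly7 fits had a batch term. Differences between lines came from a joint fit. Genes with a Benjamini-Hochberg adjusted p under 0.05 over all genes were called. Biological coefficients of variation were 0.297 for OCI-Ly7 (14 residual degrees of freedom), 0.146 for its series block (10), 0.0779 for SUDHL4 (1) and 0.298 for the joint fit (15). Alternatives were DESeq2 1.42.0, limma 3.58.1 on log2(TPM + 1) of the deposited TPM, median-ratio factors, no filter, a transcript length offset, unmerged files, other batch terms, a replicate block and each library left out. The series block with POU2F2 knockdown replicate 3 in batch 1, or without POU2AF1 knockdown replicate 1, was chosen after seeing the data. In simulated data with 100 genes changed at each size, the OCI-Ly7 POU2AF1 comparison (16001 genes) recovered 24.7% of genes changed 2-fold and 97% of those changed 4-fold, with 5 of 126 calls false, and the SUDHL4 one (16973 genes) recovered 73.5% and 87.9%, with 13 of 172 false. The simulated counts had the coefficient of variation of the matching fit for every gene, with no batch effect. Lone libraries thus varied like the others by construction, so the recovery in SUDHL4 cannot check that assumption. Correlations had 100000 permutations. The genes named are the members, transcripts with at least 5% of a member's TPM, up to 4 called genes of a list in each direction, the 5 genes most like each member and the targeted genes. Some results under this rule are not reported here.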

Additional observations from a re-analysis of the deposited data

Results flagged for a closer look

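The shares of reads in 3 transcripts drew attention in the same library, OCI-Ly7 POU2F2 knockdown replicate 3, which lay far from the other 7 libraries of its group by Dixon's criterion: 36.8% of MYB's reads in MYB-209, 80.4% of MYBL1's reads in MYBL1-204 and 10.9% in MYBL1-206. Of 36 group checks made, chance picks out about 1 in 20. The shares of 1 gene's transcripts are not independent of each other. This library carries the 48 h mark and the batch 2 label. No member's own level stood apart in this way in any group.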

How the results depend on the processing

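Of the members' results, 199 of 237 kept direction and side of the threshold under the alternatives, 23 passed it anew and 15 lost it. With 1 library left out, 189 of 204 did so. The causes were not tested unless said otherwise. For OCI-Ly7 POU2AF1 knockdown, MYB passed by DESeq2 (0.77), with files not merged (0.81), in the series block (0.82), with POU2F2 knockdown replicate 3 in batch 1 (0.81), and in the series block with that placing (0.86) or without POU2AF1 knockdown replicate 1 (0.74). MYBL1 lost its call in batch 2 alone (-1.31), and ran from -1.49 to -1.21 with 1 library left out, losing the call without control replicate 1. MYBL2 passed in the series block with replicate 3 moved (-0.37) or without POU2AF1 knockdown replicate 1 (-0.29). With POU2F2 knockdown MYBL1 passed by DESeq2 (-0.79) and in the series block (-0.87), also with replicate 3 moved (-0.81) or without POU2AF1 knockdown replicate 1 (-0.87). Between the knockdowns, MYB passed in the series block with replicate 3 moved (-0.64) or without POU2AF1 knockdown replicate 1 (-0.51), and MYBL1 passed with no batch term (0.58), with replicate 3 moved (0.64) and in the series block under the same changes (0.63 and 0.53).

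In SUDHL4 the fit of all libraries ended every call of the members: -1.21, -0.91 and -0.60 for MYB, MYBL1 and MYBL2 with POU2AF1 knockdown, -0.39 and -0.38 for MYB and MYBL1 with POU2F2 knockdown, and 0.82, 0.53 and 0.55 between the knockdowns. With POU2F2 knockdown MYB and MYBL1 also lost their calls by DESeq2 (-0.37 and -0.36), on TPM (-0.44 and -0.41) and with a length offset (-0.37 and -0.33). Leaving out a POU2F2 library, in the fit of all libraries with the lone library assumed to vary like the others, gave -0.41 to -0.38, -0.41 to -0.36 and -0.094 to 0.0068 against control, the last turning sign without replicate 2, and 0.80 to 0.83, 0.50 to 0.55 and 0.50 to 0.60 between the knockdowns, with no call. The control difference of MYBL2 ran from -1.31 to -1.09. The line difference of MYB with POU2AF1 knockdown passed by DESeq2 (-1.97), on TPM (-2.09), with files not merged (-2.02) and, over a range of -2.02 to -1.84, only without POU2AF1 knockdown replicate 1. That of MYBL2 with POU2F2 knockdown ran from -0.038 to 0.16, with the sign turned without control replicate 7.

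Signs also turned for transcripts with no call: in the series block MYB-235 was at 0.097 with POU2F2 knockdown, and MYBL2-202 at -0.10 with POU2AF1 knockdown, -0.50 with POU2F2 knockdown and -0.40 between them. Shares with POU2F2 knockdown ran from -4.08 to 0.42 points for MYB-205 (above 0 without POU2F2 knockdown replicate 8), and without control replicate 1 reached 2.58 of a range from -5.28 points for MYBL1-204 and -0.095 of a range up to 1.45 points for MYBL2-201.

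Genes called ranged over the alternatives from 7 (batch 2 alone) to 1692 (series block without POU2AF1 knockdown replicate 1) for OCI-Ly7 POU2AF1 knockdown, beside 142, and fell to 8 without control replicate 1. The ranges were 0 to 135 for POU2F2 knockdown, beside 0, and 4 to 688 between them, beside 26. In SUDHL4 they were 314 to 8896, beside 6247, 18 to 3761, beside 1247, and 37 to 7155, beside 4446, with the lowest in the fit of all libraries and the highest with files not merged. Control lines gave 3333 to 7326, beside 4448, and the line differences 104 to 1479, beside 151, and 2 to 60, beside 2. DESeq2 gave 327, 5, 85, 3398, 397, 2224, 4954, 571 and 29 in this order of comparisons.

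Same-numbered OCI-Ly7 libraries did not deviate together (r from -0.37 to 0.51), so the numbers were not taken as pairs. With the replicate block, MYB was at 1.16 with POU2AF1 knockdown (adjusted p = 0.043) and MYBL1 at 0.61 between the knockdowns (adjusted p = 0.047), and 273, 0 and 244 genes were called in the 3 OCI-Ly7 comparisons. In SUDHL4 no paired analysis was possible because its groups shared fewer than 2 replicate numbers. The SUDHL4 calls rest on 1 residual degree of freedom. Depth may limit transcripts with few reads, which was not tested.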
